A study of Mus musculus with 8 samples.

Results

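The genes of the major histocompatibility complex (MHC) and of antigen presentation were examined in ureteric bud cells of newborn wild-type and Dot1-knockout mice. They were chosen by name, as the non-control probes of RefSeq transcripts of a gene whose symbol starts with H2-, or of B2m, Tap1, Tap2, Tapbp, Psmb8, Psmb9, Psmb10, Nlrc5, Ciita, Cd74 or Erap1. This gave 45 genes, read by 55 probes, of 37018 genes or transcript names on the array. By role they were 24 class I heavy chain genes, 10 class II genes (with the DM and DO chaperones and Cd74), 8 genes that cut, carry or load class I peptides, 2 regulators of transcription, and H2-Ke6, which has an H2 symbol but encodes a steroid dehydrogenase. Counted with the class I genes were H2-K2 and H2-Q5, which are listed as non-coding transcripts. Of the 45 genes, 31 were bright enough to be tested. The list was drawn up with results of these arrays known, so its counts and medians are given as descriptions.

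RNA came from GFP-positive ureteric bud cells, the epithelium that grows into the collecting ducts, sorted from kidneys of C57BL/6 mice at postnatal day 0. The 4 wild-type samples (WT) carry the genotype label control, and the 4 knockout samples (KO) are labelled DOT1-null, from a deletion of Dot1 in Hoxb7-positive cells. Dot1l encodes a histone H3 methyltransferase that acts on transcribed genes. Both groups share the strain, the age and the GFP sort. The driver of the deletion, the source of the GFP and any pooling of kidneys or litters are not named in the sources used here, and the p-values cover the spread among these samples, which may be technical in part. Each array set Cy5-labelled cRNA of 1 sample against Cy3-labelled cRNA of WT 3, and all values below are log2 ratios of Cy5 to Cy3, named by group and replicate number. On the WT 3 array the same RNA was in both dyes, so its ratios show the bias between the dyes (0.66 for H2-D1, for example). That bias and the reference cancel in the KO minus WT difference as far as both are alike on every array.

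Class I molecules sit on most nucleated cells and show peptides made inside the cell to CD8+ T cells. The proteasome, with its inducible subunits, cuts proteins to peptides, TAP carries these into the endoplasmic reticulum, and Erap1 trims them before tapasin helps to load them onto a heavy chain paired with beta-2-microglobulin. Class II molecules show peptides taken up from outside, mainly on dendritic cells, macrophages and B cells, and the invariant chain Cd74 and the DM chaperone govern their loading. Interferon gamma raises both systems, through Nlrc5 for class I and Ciita for class II, and epithelia can be drawn into this response.

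Dot1l itself differed between the groups by 0.18 ± 0.11 (SE; limma adjusted p = 0.342) on the log2 scale. The sources used here do not say whether its probe lies in the deleted part, so it does not check the labels. Between 52.4% and 56.2% of spots had Cy5 well above background on the WT arrays, and from 59.1% to 68.9% on the KO arrays other than KO 3, which reached 95.2%. On KO 3 the scanner software marked 7665 spots as non-uniform or outlying, against 175 to 216 on the other arrays, and 6 of the 55 MHC probes were among them. KO 2 also stood apart, since limma passed 2 genes in all with it and 4947 without it. It was thus singled out on these same data, and p-values without it are given as descriptions. The arrays were on 1 slide with each genotype in a row of its own, so genotype cannot be told apart from the row of the slide. All 18 ureteric bud and collecting duct markers were well above background on all 4 WT arrays, and so were 16 of 19 myeloid markers (Flt3, Itgax and Xcr1 on none of them), 6 of 12 lymphocyte markers (Cd3g, Cd8a, Klrb1c, Ms4a1 and Pax5 were among those on none), 10 of 10 endothelial, 8 of 9 stromal and 9 of 9 nephron progenitor and nephron markers (median difference of the last -0.22). In such bulk samples fewer cells of a type and less RNA per cell cannot be told apart.

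Class I promoters carry a compact block of control elements upstream of the start: an NF-kappa-B site, an interferon-stimulated response element, and the module through which Nlrc5 acts, which ends in an inverted CCAAT box. Class II promoters share that module, and Ciita acts through it. The 250 bases before the start of H2-K1, H2-D1 and H2-Q7 (the class I genes with a match to every pattern searched), of H2-Q4 (the class I gene whose KO arrays stood farthest from WT), and of B2m and H2-Aa (the light chain and a class II chain) are shown from RefSeq on GRCm38.p6, from 5′ to 3′ in the direction of transcription. Capitals mark each match on either strand to GAANNGAAA (interferon-stimulated response element), GGGANTCCC (NF-kappa-B), ATTGG (inverted CCAAT box) or TGACG (core of the cyclic AMP response element), and neighbouring matches can run together. H2-K1 has 2 entries, of which the first by position is shown.
H2-K1 (chr17:34000334-34000583, minus strand): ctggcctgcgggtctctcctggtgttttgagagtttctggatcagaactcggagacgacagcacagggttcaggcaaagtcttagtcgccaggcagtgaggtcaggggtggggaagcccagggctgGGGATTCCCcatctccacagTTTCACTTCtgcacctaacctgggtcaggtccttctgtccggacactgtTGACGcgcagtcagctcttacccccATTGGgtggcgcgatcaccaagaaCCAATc
H2-D1 (chr17:35262844-35263093, plus strand): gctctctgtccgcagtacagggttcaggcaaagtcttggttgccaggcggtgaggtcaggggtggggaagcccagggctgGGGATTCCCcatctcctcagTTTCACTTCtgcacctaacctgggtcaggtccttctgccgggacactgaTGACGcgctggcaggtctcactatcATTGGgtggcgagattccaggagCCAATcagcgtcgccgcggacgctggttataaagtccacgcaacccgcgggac
H2-Q7 (chr17:35438905-35439154, plus strand): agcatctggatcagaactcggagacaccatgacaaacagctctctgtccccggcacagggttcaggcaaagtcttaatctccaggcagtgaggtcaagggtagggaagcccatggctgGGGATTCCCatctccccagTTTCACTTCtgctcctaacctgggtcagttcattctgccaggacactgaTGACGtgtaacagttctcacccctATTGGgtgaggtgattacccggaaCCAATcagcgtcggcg
H2-Q4 (chr17:35379367-35379616, plus strand): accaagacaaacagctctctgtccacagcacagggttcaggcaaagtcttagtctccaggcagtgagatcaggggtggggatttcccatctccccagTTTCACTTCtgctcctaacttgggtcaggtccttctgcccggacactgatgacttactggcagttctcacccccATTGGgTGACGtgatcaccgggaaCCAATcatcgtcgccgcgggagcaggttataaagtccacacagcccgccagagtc
B2m (chr2:122147437-122147686, plus strand): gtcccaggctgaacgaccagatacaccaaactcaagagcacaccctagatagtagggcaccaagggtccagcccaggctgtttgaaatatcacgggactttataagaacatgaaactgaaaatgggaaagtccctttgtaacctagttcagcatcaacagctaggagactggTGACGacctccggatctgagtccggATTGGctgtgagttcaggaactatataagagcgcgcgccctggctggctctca
H2-Aa (chr17:34287824-34288073, minus strand): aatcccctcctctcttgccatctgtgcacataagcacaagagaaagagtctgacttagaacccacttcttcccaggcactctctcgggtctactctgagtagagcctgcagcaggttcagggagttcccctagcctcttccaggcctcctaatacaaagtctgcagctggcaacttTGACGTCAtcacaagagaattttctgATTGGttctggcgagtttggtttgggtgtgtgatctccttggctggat
A promoter entry was found for 34 of the 45 genes, 22 of them tested, and the searches covered windows from 250 bases before to 50 after the start. GAANNGAAA lay in the window of 6 of 18 class I genes, namely H2-D1, H2-K1, H2-M3, H2-Q10, H2-Q4 and H2-Q7, and in 0 of 8 class II and 0 of 7 processing genes, against 7.52% of 32851 RefSeq promoters of the same length. All 6 were among the 8 tested class I genes with an entry. GGGANTCCC lay in 3 of 18 class I genes (H2-D1, H2-K1 and H2-Q7), against 0.767% of all promoters. In all 3 it reads GGGATTCCC, matches on both strands at the same place, and lies just upstream of the interferon element. That element reads TTTCACTTC in this direction in all 6 genes that hold it. ATTGG lay in 15 of 18 class I, 8 of 8 class II and 4 of 7 processing genes, against 37.4% of all promoters, and TGACG in 8, 1 and 3 of them, against 20.8%. A gene was counted if any of its entries matched, whereas the shares of all promoters are by entry. H2-DMa had ATTGG only in the later of its entries by position. The matches of Tap1 and Psmb9 are the same bases, which their windows share. These matches are descriptions of the letters, and no match says only that the letters are absent from the window.

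No MHC or antigen presentation gene passed the threshold of an adjusted p under 0.05 between KO and WT (0 of 31 by limma, where 0.00857% of all 23343 genes passed, 2 genes, both lower). At an unadjusted p under 0.05 there were 5 of 31 (H2-Q4, Cd74, H2-DMb1, Tap2 and H2-M3), or 16.1%, against 5616 of all genes, or 24.1%. The 4 KO arrays lay wholly above the 4 WT arrays for 2 genes, H2-M3 and Tap2, where 4.22% of all genes did, and wholly below for 0, where 7.62% of all genes did. In both directions together that is 6.45% of the tested genes, against 11.8% of all genes. The median difference was 0.13 over the 13 tested class I genes, -0.21 over the 8 class II genes and 0.04 over the 8 processing genes, against -0.02 over all genes. Differences of 11 of 13 class I genes were above 0, and those of 8 of 8 class II genes below 0, beside 12630 of 23343 genes below 0 in all. The sign of the class I side hung on the scaling: centring each array on its median in place of loess turned 8 of the 11 below 0, with a class I median of -0.26 against -0.30 over all genes. Without WT 2 the class I median was -0.02. The processing median also turned below 0, to -0.26 with median centring, -0.16 with Cy5 alone, -0.01 without WT 2, -0.10 without KO 2 and -0.08 with KO 3 left out as well.

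**Figure D1:**
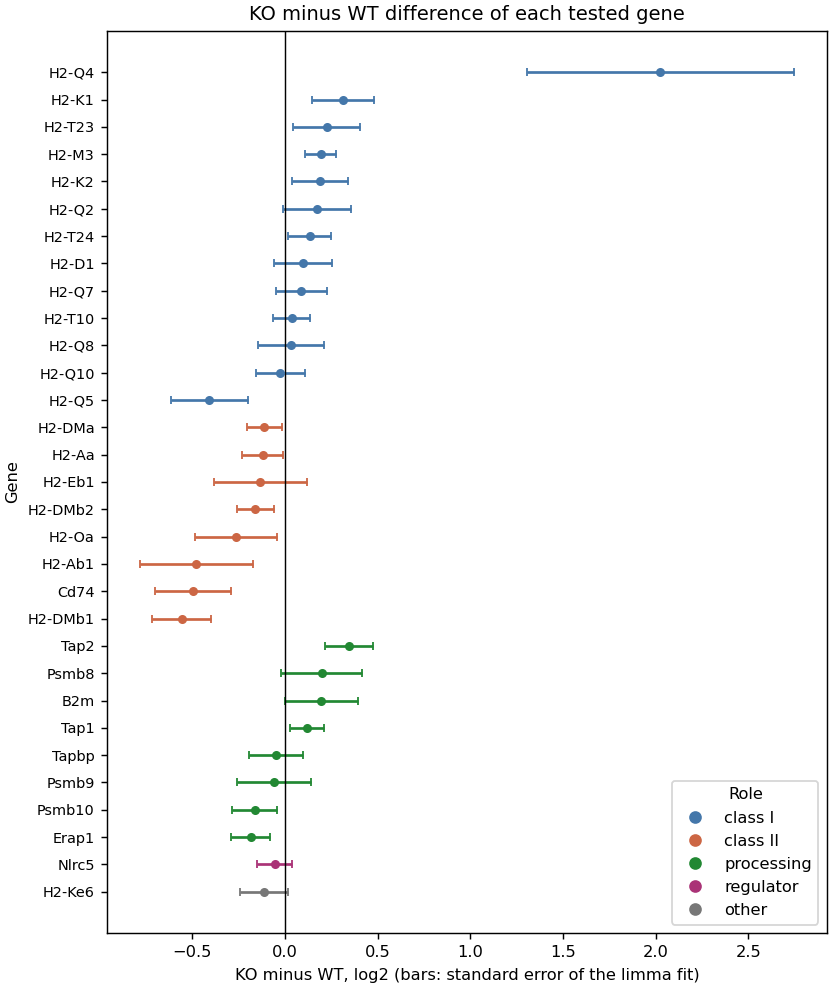
KO minus WT difference of log2 ratios for each of the 31 tested genes, with bars for the standard error of the limma fit and colours for the role. H2-Q4 lies at 2.03, and the others between -0.56 and 0.35, with all 8 class II genes left of 0.

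Without KO 2, limma passed H2-Q4, higher in KO (1 of 31, where 10.0% of all genes passed as higher), and Cd74, lower in KO (1 of 31, where 11.2% passed as lower). Without KO 2 and KO 3, Psmb10 was also lower (H2-Q4 alone higher where 13.5% of all genes were, Cd74 and Psmb10 lower where 10.1% were). On every one of these counts the share among the MHC genes was below that of all genes.

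**Figure D2:**
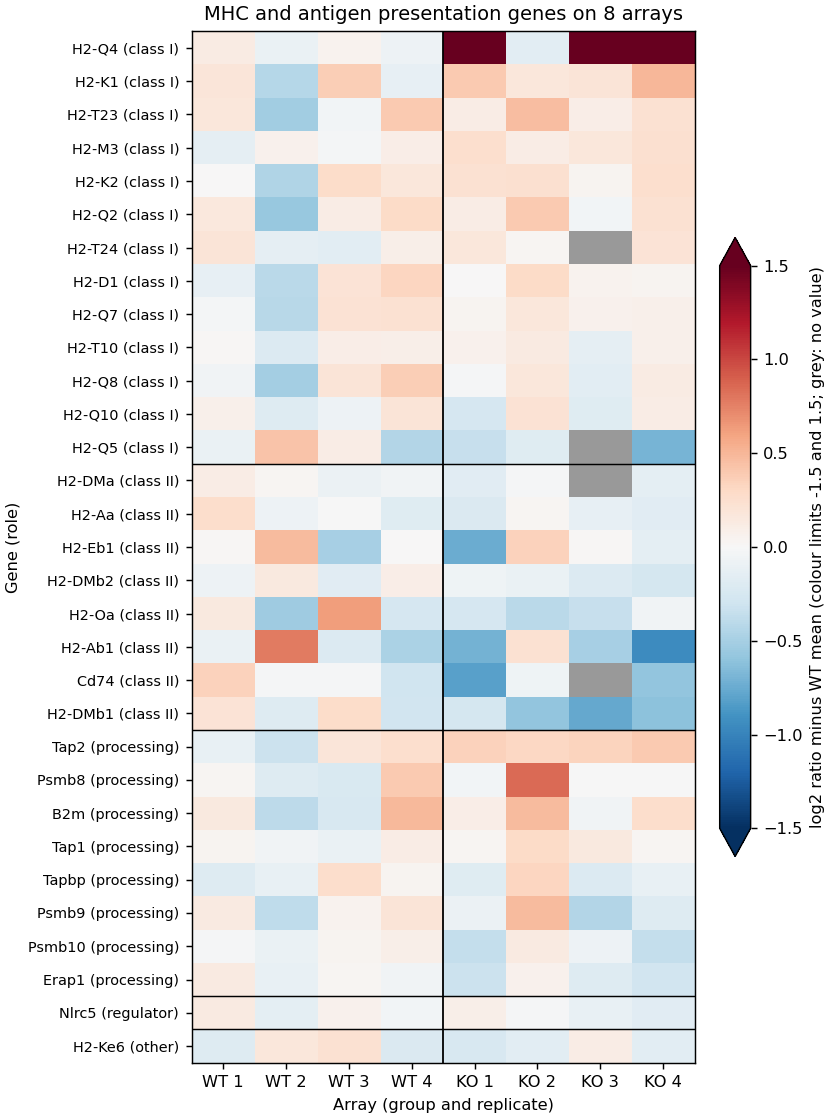
Log2 ratio of each of the 31 tested genes on each array after subtracting its WT mean, with colour limits of -1.5 and 1.5, genes ordered by role and arrays by group and replicate, grey where a spot was left out. H2-Q4 is past the upper colour limit on KO 1, KO 3 and KO 4, and WT 2 is the lowest WT array in 10 of 13 class I genes.

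H2-K1 (NM_001001892) encodes the K heavy chain, one of the classical class I molecules. H2-K1 had log2 ratios of -0.53, -1.14, -0.34 and -0.83 on WT 1 to WT 4, and -0.32, -0.54, -0.52 and -0.22 on KO 1 to KO 4. WT 2 and WT 4 were the lowest, and the KO arrays overlapped WT 1 and WT 3. The difference was 0.31 ± 0.17 (SE; limma adjusted p = 0.279), a second H2-K1 probe gave 0.25, and the difference was 0.17 without WT 2. H2-D1 (NM_010380), the D heavy chain, had log2 ratios of 0.34, 0.06, 0.66 and 0.78 on WT 1 to WT 4, and 0.47, 0.75, 0.51 and 0.50 on KO 1 to KO 4. The 4 KO arrays lay within the WT range, with KO 2 apart from the other KO arrays at the top. The difference of 0.10 ± 0.16 (SE; limma adjusted p = 0.736) was smaller than the spread within WT, and it turned below 0 without WT 2.

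The class I paralogs are close copies of each other, so a probe named for one may also read another, and the probe sequences were not used here. Within that limit, H2-K2 (listed as a non-coding transcript) differed by 0.19 ± 0.15 (SE), with 0.08 at its other probe, H2-Q2 by 0.17 ± 0.18 with -0.04 at the other, H2-Q7 (a Qa-2 heavy chain) by 0.09 ± 0.14 and H2-Q8 by 0.03 ± 0.18. Without WT 2 these were 0.04 for H2-K2, -0.02 for H2-Q2, -0.05 for H2-Q7 and -0.14 for H2-Q8. The raw Cy5 intensities of H2-D1, H2-K1, H2-K2, H2-Q2, H2-Q7, H2-Q8 and H2-T23 all dipped on WT 2, for example 7252, 4459, 8438 and 8265 on WT 1 to WT 4, and 7349, 10265, 9227 and 6733 on KO 1 to KO 4 for H2-D1. WT 2 was the lowest WT array for 10 of 13 class I genes and WT 4 the highest for 7. Among the KO arrays KO 2 was the highest for 7 of the 11 class I genes with values on all KO arrays.

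Of the nonclassical genes, H2-M3, which shows formylated peptides of bacteria and mitochondria, separated the groups most cleanly. H2-M3 (NM_013819) had log2 ratios of -0.22, -0.03, -0.11 and 0.02 on WT 1 to WT 4, and 0.17, 0.02, 0.08 and 0.15 on KO 1 to KO 4. Each KO array lay above each WT array, though KO 2 and WT 4 both round to 0.02, and the difference was 0.19 ± 0.09 (SE; limma adjusted p = 0.207). It was below 0 when Cy5 alone was used without the reference channel. H2-T23, which encodes Qa-1, a ligand of the CD94 and NKG2 receptors of natural killer cells, differed by 0.23 ± 0.18 (SE), H2-T24 by 0.13 ± 0.12, H2-T10 by 0.04 ± 0.10 and H2-Q10, a soluble heavy chain of liver, by -0.03 ± 0.13. None of these had groups that did not overlap. Without WT 2 the difference was 0.05 for H2-T23 and -0.03 for H2-T10, and H2-Q10 turned above 0 without WT 4, KO 1 or KO 3. H2-Q5 (NR_051981, listed as a non-coding transcript) had log2 ratios of 0.15, 0.69, 0.37 and -0.19 on WT 1 to WT 4, and -0.09, 0.07 and -0.44 on KO 1, KO 2 and KO 4, with its KO 3 spot left out. The groups overlapped, and its difference of -0.41 ± 0.21 (SE; limma adjusted p = 0.265) was the lowest among the class I genes. It was -0.27 without WT 2 and -0.27 without KO 4.

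H2-Q4 encodes a class I heavy chain of the Q region and had the widest difference of all 31 genes. H2-Q4 (NM_001143689, 1 probe and 1 spot) had log2 ratios of 0.48, 0.25, 0.40 and 0.28 on WT 1 to WT 4, and 2.71, 0.19, 2.05 and 4.55 on KO 1 to KO 4. KO 4, KO 1 and KO 3 lay far above all WT arrays, and KO 2 lay just below the lowest of them. The WT mean was 0.35 ± 0.11 (SD, n = 4), the KO mean 2.38 ± 1.80 (SD, n = 4), and the difference was 2.03 ± 0.72 (SE; limma adjusted p = 0.146). As many as 3091 genes had a p as small, but only 11 of 23343 (0.0471%) had a difference as large upward. In raw Cy5 intensity H2-Q4 read 17097, 11438, 15091 and 12904 on WT 1 to WT 4, and 58689, 14764, 41394 and 122217 on KO 1 to KO 4. In the Cy3 channel, which held the same WT 3 RNA on every array, its intensity was 2296, 2304, 2470 and 2317 on WT 1 to WT 4, and 1998, 2483, 2083 and 1305 on KO 1 to KO 4. The Cy3 values of KO 1, KO 3 and KO 4, where Cy5 was brightest, were the lowest of the 8.

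The H2-Q4 difference rested on which KO arrays were kept. Leaving out KO 2 gave 2.75 (limma adjusted p = 0.00649), leaving out KO 3 as well gave 3.28 (adjusted p = 0.00240), and leaving out KO 4 alone gave 1.30 (adjusted p = 0.274). KO 2 was the KO array with the lowest H2-Q4, so leaving it out raises the difference by itself. The order of the arrays was not particular to H2-Q4. Of 21215 genes with values on all arrays, 134 (0.632%) had KO 1, KO 3 and KO 4 at least 2-fold above the highest WT array with KO 2 not above it, and 115 of these also had KO 4 above KO 1 and KO 1 above KO 3. H2-Q4 was the single MHC gene among them. Of the cell type markers, Itgam and Eya1 (chosen after their values were seen) had a like order. Itgam, an integrin of myeloid cells, had log2 ratios of 0.52, 0.53, 0.63 and 0.58 on WT 1 to WT 4, and 1.87, 0.51, 1.48 and 2.98 on KO 1 to KO 4. Eya1, a nephron progenitor gene, had 0.50, 0.56, 0.56 and 0.62 on WT 1 to WT 4, and 1.81, 0.59, 1.68 and 2.61 on KO 1 to KO 4. The nephron progenitor genes Six2 and Cited1 did not have this order, with differences of -0.78 ± 0.57 (SE) and -0.82 ± 0.44. Of the 9 nephron progenitor and nephron markers, 6 had differences below 0 and 3 above. The summed Cy5 intensity of 12 myeloid markers with complete values ran from 13602 to 20531 on the WT arrays and from 15237 to 81121 on the KO arrays. Without Itgam it ran from 7122 to 14220 and from 6393 to 10037. Their part in the H2-Q4 values was not tested.

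**Figure D3:**
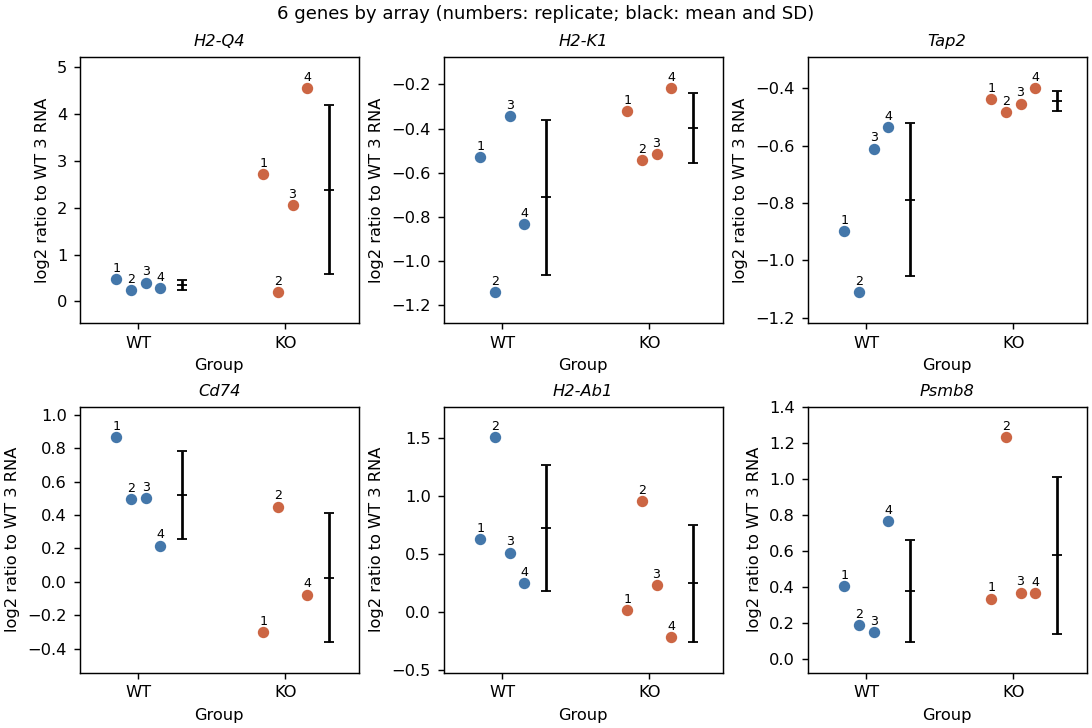
Log2 ratio to the WT 3 RNA of H2-Q4, H2-K1, Tap2, Cd74, H2-Ab1 and Psmb8 on each array (points, numbered by replicate), with the mean and SD of each group in black and an axis range of its own in each panel. KO 2 lies with the WT arrays in H2-Q4 and above the other KO arrays in Psmb8, and Cd74 has no value on KO 3.

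Most class I genes had a larger SD among the WT arrays than among the KO arrays. This held for 11 of 13 class I genes, with a median SD of 0.32 in WT and 0.15 in KO, whereas over all genes it was larger in WT for 28.6% (median SD 0.12 and 0.19). It was larger in WT for 6 of 8 class II and 2 of 8 processing genes. By array, the class I medians were 0.34, -0.12, 0.37 and 0.47 on WT 1 to WT 4, and 0.38, 0.49, 0.33 and 0.50 on KO 1 to KO 4. The KO 3 median is over the 11 genes with a value there, without H2-Q5 and H2-T24. WT 2 was low and the other arrays overlapped. Markers of endothelium, a class I-rich cell type, had array medians of -0.16, -0.19, 0.23 and 1.19 on WT 1 to WT 4, and 0.30, 0.57, 0.45 and 0.29 on KO 1 to KO 4, highest on WT 4, and stromal markers 1.23, 1.17, 0.04 and 0.98 on WT 1 to WT 4, and -0.09, 1.31, 0.25 and 0.66 on KO 1 to KO 4. Their part in the class I values was not tested.

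**Figure D4:**
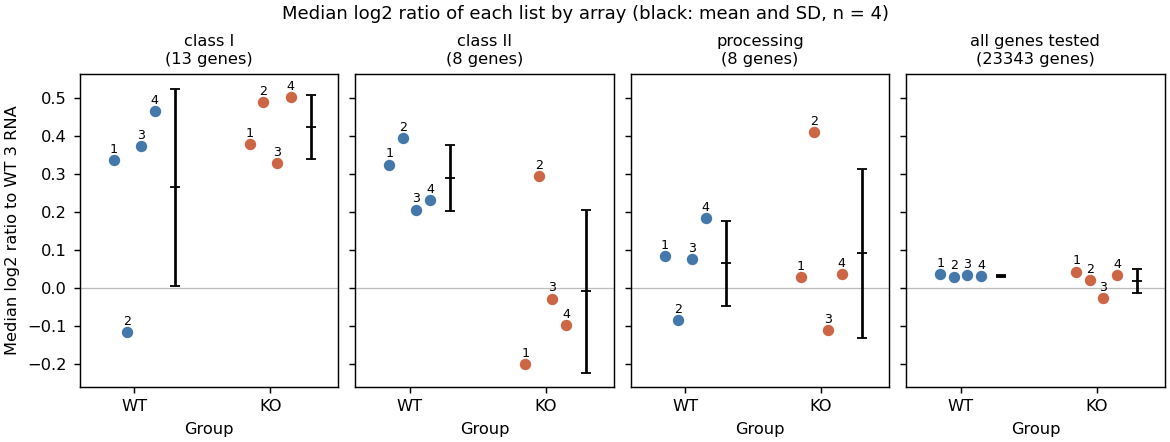
Median log2 ratio to the WT 3 RNA on each array over the 13 class I, 8 class II and 8 processing genes and over all 23343 genes tested (points, numbered by replicate), with the mean and SD of the 4 arrays in black. Genes without a value on an array are left out there, so on KO 3 the medians cover 11 class I and 6 class II genes. WT 2 stands low in class I at -0.12, and KO 2 stands above the other KO arrays in class II and processing.

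B2m (NM_009735), the light chain of every class I molecule, had log2 ratios of 0.69, 0.15, 0.30 and 1.04 on WT 1 to WT 4, and 0.64, 1.02, 0.50 and 0.81 on KO 1 to KO 4. WT 2 and WT 3 were the lowest arrays, WT 4 and KO 2 the highest, and the groups overlapped. The difference was 0.20 ± 0.20 (SE; limma adjusted p = 0.563), or 0.06 without WT 2, and it turned below 0 with median centring. B2m thus had its low WT array in common with most heavy chains.

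Tap1 and Tap2 form the peptide transporter of the endoplasmic reticulum. Tap2 (NM_011530) had log2 ratios of -0.90, -1.11, -0.61 and -0.53 on WT 1 to WT 4, and -0.44, -0.48, -0.45 and -0.40 on KO 1 to KO 4. All KO arrays lay above all WT arrays, and WT 2 was again the lowest. The difference was 0.35 ± 0.13 (SE; limma adjusted p = 0.153), and it shrank to 0.03 with median centring. Tap1 (NM_013683) had log2 ratios of 0.06, -0.04, -0.09 and 0.13 on WT 1 to WT 4, and 0.04, 0.29, 0.15 and 0.04 on KO 1 to KO 4, with overlapping groups and a difference of 0.12 ± 0.09 (SE; limma adjusted p = 0.455), which turned below 0 with median centring and Cy5 alone. Tapasin, encoded by Tapbp, bridges TAP and the heavy chain. Tapbp (NM_001025313) had log2 ratios of 0.00422, 0.09, 0.46 and 0.24 on WT 1 to WT 4, and 0.01, 0.52, -0.01 and 0.09 on KO 1 to KO 4. KO 2 was the highest of its arrays, the groups overlapped, and the difference was -0.05 ± 0.15 (SE; limma adjusted p = 0.871), or -0.17 without KO 2 and 0.04 without WT 3.

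Psmb8, Psmb9 and Psmb10 are the inducible catalytic subunits that turn the proteasome into the immunoproteasome. Psmb8 (NM_010724) had log2 ratios of 0.40, 0.19, 0.15 and 0.77 on WT 1 to WT 4, and 0.33, 1.23, 0.37 and 0.37 on KO 1 to KO 4. KO 2 stood above all other arrays, while the other KO arrays lay together within the WT range, and the difference was 0.20 ± 0.22 (SE; limma adjusted p = 0.604). It turned below 0 without KO 2 (-0.02) and with median centring (-0.02). Psmb9 (NM_013585) had log2 ratios of 0.37, -0.16, 0.28 and 0.42 on WT 1 to WT 4, and 0.14, 0.71, -0.21 and 0.03 on KO 1 to KO 4. KO 2 was the highest here as well and KO 3 the lowest, with overlapping groups and a difference of -0.06 ± 0.20 (SE; limma adjusted p = 0.879), which was -0.24 without KO 2 and 0.07 without KO 3. Psmb9 and Tap1 are transcribed away from each other from starts 226 bases apart, and their promoter windows share 275 bases. Psmb10 (NM_013640) had log2 ratios of -0.40, -0.48, -0.34 and -0.30 on WT 1 to WT 4, and -0.74, -0.25, -0.45 and -0.73 on KO 1 to KO 4. KO 1 and KO 4 were the lowest, KO 3 lay within the WT range and KO 2 above it. The difference was -0.16 ± 0.12 (SE; limma adjusted p = 0.434), which with KO 2 and KO 3 both left out became -0.36 (adjusted p = 0.0243).

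Erap1, the aminopeptidase that trims peptides in the endoplasmic reticulum, completes the group. Erap1 (NM_030711) had log2 ratios of 0.11, -0.13, 0.0031 and -0.08 on WT 1 to WT 4, and -0.35, 0.04, -0.22 and -0.31 on KO 1 to KO 4. KO 1, KO 4 and KO 3 were lower than every WT array and KO 2 was among the highest, and the difference was -0.19 ± 0.11 (SE; limma adjusted p = 0.308). KO 2 was the highest KO array for 7 of the 8 processing genes, and WT 2 the lowest WT array for 5 of 8. The processing medians by array were 0.08, -0.09, 0.08 and 0.18 on WT 1 to WT 4, and 0.03, 0.41, -0.11 and 0.04 on KO 1 to KO 4. KO 2 was the highest, and the groups overlapped.

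Among class II genes, Cd74 encodes the invariant chain, which fills the class II groove until the endosome. Cd74 (NM_001042605) had log2 ratios of 0.86, 0.50, 0.50 and 0.22 on WT 1 to WT 4, and -0.30, 0.45 and -0.08 on KO 1, KO 2 and KO 4, with the KO 3 spot left out because the scanner software marked it. KO 1 and KO 4 lay below every WT array and KO 2 within the WT range. The difference was -0.50 ± 0.20 (SE; limma adjusted p = 0.185). Without KO 2, which leaves KO 1 and KO 4, it was -0.71 (adjusted p = 0.0265). The left-out KO 3 spot read 252 in Cy3, where the other arrays read 48 to 66 for the same reference RNA.

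H2-Aa and H2-Ab1 encode the alpha and beta chains of the A molecule, and H2-Eb1 the beta chain of the E molecule. H2-Ab1 (NM_207105) had log2 ratios of 0.63, 1.51, 0.52 and 0.25 on WT 1 to WT 4, and 0.02, 0.96, 0.23 and -0.21 on KO 1 to KO 4. WT 2 and KO 2 were the highest arrays of their groups, the groups overlapped, and the difference was -0.48 ± 0.30 (SE; limma adjusted p = 0.359), with -0.52 at a second probe. It was -0.22 without WT 2 and -0.71 without KO 2. The H2-Aa probe was dim, well above background on 3 WT and 3 KO arrays, with Cy5 intensities from 74 to 196. H2-Aa (NM_010378) had log2 ratios of 0.38, 0.03, 0.10 and -0.06 on WT 1 to WT 4, and -0.10, 0.14, -0.00421 and -0.05 on KO 1 to KO 4, with overlapping groups and a difference of -0.12 ± 0.11 (SE; limma adjusted p = 0.530), or -0.03 without WT 1. H2-Eb1 (NM_010382) had log2 ratios of 0.27, 0.72, -0.25 and 0.24 on WT 1 to WT 4, and -0.50, 0.58, 0.26 and 0.10 on KO 1 to KO 4. Its highest arrays were WT 2 and KO 2 as in H2-Ab1, and the groups overlapped. The difference of -0.13 ± 0.25 (SE; limma adjusted p = 0.775) turned above 0 without WT 2 and without KO 1. The WT array with the highest H2-Ab1 and H2-Eb1, WT 2, was thus the one with the lowest H2-K1, H2-D1 and B2m.

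The DM and DO molecules exchange peptides on class II or restrain that exchange. H2-DMb1 (NM_010387), a DM beta chain, had log2 ratios of -0.11, -0.51, -0.04 and -0.61 on WT 1 to WT 4, and -0.58, -0.91, -1.08 and -0.93 on KO 1 to KO 4. KO 2, KO 3 and KO 4 were lower than every WT array, and KO 1 lay just above WT 4. The difference of -0.56 ± 0.16 (SE; limma adjusted p = 0.115) was the lowest of the 31 genes. H2-DMb2 (NM_010388), the other beta chain, had log2 ratios of 0.07, 0.29, -0.03 and 0.25 on WT 1 to WT 4, and 0.08, 0.04, -0.05 and -0.12 on KO 1 to KO 4, with overlapping groups and a difference of -0.16 ± 0.10 (SE; limma adjusted p = 0.345). H2-DMa (NM_010386), the alpha chain, had log2 ratios of 0.62, 0.54, 0.42 and 0.46 on WT 1 to WT 4, and 0.34, 0.49 and 0.36 on KO 1, KO 2 and KO 4, without its marked KO 3 spot. KO 2 lay within the WT range and KO 1 and KO 4 below it, and the difference was -0.11 ± 0.09 (SE; limma adjusted p = 0.495). H2-Oa, the DO alpha chain, differed by -0.26 ± 0.22 (SE), and H2-Ke6 by -0.11 ± 0.13. The H2-Oa value was -0.05 without WT 3 and -0.44 without WT 2, and that of H2-Ke6 was -0.04 without WT 3.

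The class II medians by array were 0.32, 0.39, 0.21 and 0.23 on WT 1 to WT 4, and -0.20, 0.29, -0.03 and -0.10 on KO 1 to KO 4. KO 2 lay within the WT range and the other 3 KO arrays below it. The KO 3 median is over 6 genes, without Cd74 and H2-DMa, so it is not set against the same genes as the WT medians. The sign stayed below 0 for 7 of the 8 genes under all alternatives run, H2-Eb1 being the exception. Cells that carry class II as a rule are myeloid cells and B cells. The 16 tested myeloid markers had a median difference of -0.15 (13 of 16 below 0) and array medians of 0.42, -0.27, 0.09 and -0.06 on WT 1 to WT 4, and -0.31, 0.05, -0.05 and -0.11 on KO 1 to KO 4. The 6 tested lymphocyte markers had a median difference of -0.22 and array medians of 0.23, 0.18, 0.24 and 0.29 on WT 1 to WT 4, and 0.04, 0.18, -0.33 and -0.10 on KO 1 to KO 4, with summed Cy5 intensities over 5 complete genes of 5201 to 6039 on WT and 2103 to 5520 on KO arrays. Of these, Cd79b (-0.31 ± 0.16, SE) and Cd79a (-0.05 ± 0.12) are B cell genes. The others, Cd3e, Cd4, Lck and Nkg7, are genes of T and natural killer cells. Neither the median nor the sum is thus of B cells alone. The B cell genes Ms4a1 and Pax5 and the dendritic cell genes Flt3, Itgax and Xcr1 did not clear the background on any WT array. The part of these cells in the class II values was not tested.

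The regulators were near or below the detection limit. Nlrc5 (NM_001033207), which drives class I transcription, was well above background on 1 WT array and on KO 1, KO 2 and KO 3. It reached the 4 arrays that the filter needs only with KO 3, where 95.2% of all spots were well above background. Nlrc5 had log2 ratios of 0.16, -0.12, 0.10 and -0.01 on WT 1 to WT 4, and 0.11, 0.01, -0.09 and -0.14 on KO 1 to KO 4, with overlapping groups and a difference of -0.06 ± 0.10 (SE; limma adjusted p = 0.753), and its second probe was too dim to test. Ciita, which drives class II transcription, was well above background on 0 WT and 3 KO arrays. Its Cy5 intensities were 57, 64, 58 and 62 on WT 1 to WT 4, and 80, 149, 2066 and 173 on KO 1 to KO 4. KO 3 was far brighter than the other arrays, but there the reference channel was too, with 308 in Cy3 against 21 to 30 elsewhere, and that spot was marked. Ciita had log2 ratios of -0.27, -0.08, -0.18 and -0.05 on WT 1 to WT 4, and -0.19, 0.06 and 0.46 on KO 1, KO 2 and KO 4, of which KO 1 was not above background either. KO 1 lay within the WT range and KO 2 and KO 4 above it, and no fold is given.

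The other 13 untested genes were H2-Eb2 and H2-Ob of class II and H2-M1, H2-M10.1, H2-M10.2, H2-M10.3, H2-M10.4, H2-M10.6, H2-M11, H2-M5, H2-M9, H2-Q1 and H2-T3 of class I. For all 14 untested genes, no WT array was well above background. The H2-M10 genes encode class I molecules of vomeronasal neurons, and H2-T3 the thymus leukaemia antigen. Probes named for all 8 processing genes and for 13 of 24 class I genes thus passed the filter. That of H2-T24 was well above background on 2 WT arrays. Since a class I probe may also read a paralog, RNA of each of the 13 genes is not shown.

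The partners of the pathway outside the MHC list were also read, and none of their genes passed the adjusted threshold. Of 6 chaperones and factors of peptide loading, with a median difference of -0.08, 2 had KO arrays wholly below WT (7.62% of all genes did). They were Pdia3, the disulphide isomerase that holds tapasin, at -0.32 ± 0.09 (SE), and the lectin chaperone calreticulin, Calr, at -0.31 ± 0.10, while Canx (calnexin) stood at 0.22 ± 0.10. Among 5 proteasome activators and assembly factors the median was -0.18, and Psme4, a nuclear activator, was wholly below WT at -0.48 ± 0.09, with Psme3 at 0.35 ± 0.15 and the assembly chaperone Pomp at -0.25 ± 0.12. The 3 constitutive catalytic subunits that the inducible ones replace were all below 0: Psmb7 at -0.39 ± 0.13, Psmb6 at -0.08 ± 0.08 and Psmb5 at -0.09 ± 0.09.

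Other peptidases, which destroy or trim peptides, had a median of -0.13 over 6 genes, with Thop1 at -0.55 ± 0.20 (SE), Npepps at 0.37 ± 0.13 and Blmh at -0.26 ± 0.11. The 7 factors that bind the shared promoter module (RFX, NF-Y and CREB proteins) had a median of -0.14, with Nfyc at 0.44 ± 0.16, Rfxank at -0.32 ± 0.14 and Rfxap at -0.19 ± 0.09. Of 6 lysosomal enzymes of the class II route, with a median of 0.12, cathepsin L (Ctsl) was wholly above WT at 0.46 ± 0.13 (4.22% of all genes were), with Ctsd at 0.20 ± 0.14 and the thiol reductase Ifi30 at -0.12 ± 0.10. Cathepsin L cuts the invariant chain in thymic epithelium.

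MHC-like molecules outside the complex had a median of -0.06 over the 6 tested of 7. The lipid-presenting Cd1d1 stood at 0.53 ± 0.19 (SE), the Fc receptor of the newborn Fcgrt at -0.21 ± 0.21 and Mr1 at -0.09 ± 0.10. Genes of interferon gamma signalling, 12 tested of 13 (Cxcl9 did not clear the background in WT), had a median of 0.05, with the receptor chain Ifngr2 at -0.31 ± 0.12, the inhibitor Socs1 at -0.31 ± 0.14 and Irf9 at 0.32 ± 0.21. Costimulatory genes, 5 tested of 6 (Cd274 was not), had a median of -0.04, with Cd80 at 0.78 ± 0.34, Cd40 at -0.18 ± 0.16 and Icosl at -0.13 ± 0.15. In each of these lists 0 genes passed with all arrays kept.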

How the data were processed

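The deposited scanner files hold median Cy5 and Cy3 intensity and local background per spot, in the unit the authors' scanner software wrote. That software was Agilent Feature Extraction, version 10.7.3.1 by the submitters' processing notes. The files' log10 ratio of Cy5 to Cy3, background-subtracted and dye-normalised per the file headers, and the deposited value table on the same log10 scale (r at least 0.999999) served as alternatives. Its columns had medians of 0, and 0.0152 on KO 3.

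Intensities were corrected with normexp (offset 50) and loess within arrays in limma 3.58.1 (R 4.3.3, with jsonlite 2.0.0 and data.table version 1.17.8), with control spots at weight 0. Marked spots were left out and the spots of a probe averaged. A probe was kept with Cy5 well above background on at least 4 of 8 arrays and values on at least 3 per group. Transcript names were matched to RefSeq genes of GRCm38.p6, and the brightest probe of each gene was used, which left 23343 genes. KO and WT were compared 2-sided with limma's lmFit and eBayes, and p-values were adjusted by Benjamini-Hochberg over these genes. The files hold median and no mean signals. All tested members are named, with values per array for the main ones and the 4 others with the smallest p, and up to 3 genes of each other list by p. Members and lists were chosen with earlier results of these data known. The fit was tested on simulated data. In all, 22 alternatives were run, on background correction, normalisation, filters, probe choice, the fit, the replicate block and arrays left out. Python 3.11.15, pandas 2.3.3 and matplotlib 3.10.9 served for promoters and figures. The number of arrays limits the precision.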

Additional observations from a re-analysis of the deposited data

Results flagged for a closer look

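Among 58 groups of 4 arrays (a tested gene in WT or in KO), 3 held an array whose gap to its nearest neighbour passed Dixon's 95% limit for 4 values (0.829 of the group's range), which chance alone gives in about 1 of 20 groups. H2-D1 read 0.75 on KO 2, with the other KO arrays between 0.47 and 0.51. H2-K2 read 0.37 on KO 3, with the others between 0.55 and 0.58. Psmb8 read 1.23 on KO 2, with the others between 0.33 and 0.37. KO 2 was the highest KO array for both genes that stood out upward.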

How the results depend on the processing

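With all arrays kept, the count of MHC genes past the threshold was 0 under all alternatives to the background, normalisation, filter and probe choice that were run. It was 2 with array weights (H2-Q4 and Cd74), 0 to 2 over the fits that leave out 1 array (2 without KO 2), and 3 without KO 2 and KO 3. The class I median moved to -0.26 with median centring. The class II median moved to -0.39 with a normexp offset of 0, -0.47 with the scanner's log ratio, -0.55 with median centring, -0.47 with the series value table and -0.66 with Cy5 alone. The processing median moved to -0.26 with median centring and -0.16 with Cy5 alone. The cause was not tested. The all-gene median was -0.30 under median centring and -0.18 under Cy5 alone. With the replicate number as a block, 0 MHC genes passed and the class medians were 0.10, -0.21 and 0.04. Same-numbered arrays correlated at -0.24, 0.05, 0.11 and -0.02 once group means were taken off. Arrays of unlike number were not compared, so whether the numbers pair samples cannot be told. Over all genes the count passing was 2, and 4947 without KO 2 (2335 higher and 2612 lower), 5510 without KO 2 and KO 3 (3149 higher and 2361 lower), 4542 with array weights, 16 with an intensity trend and robust fit, 8 without KO 3, and 0 to 5 under the others. Dim probes limit Nlrc5, Ciita, H2-T24 and H2-Aa, and 14 genes were too dim to test. H2-T24 was well above background on 2 WT arrays, and H2-Aa on 3 WT and 3 KO arrays.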
